A study of Mus musculus with 6 samples.

Results

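Integrins are surface receptors made of 1 alpha and 1 beta subunit, which hold cells to the matrix or to other cells and join those contacts to actin inside the cell. In skeletal muscle Itgb1 pairs with several alpha subunits, and the laminin receptor made of the Itga7 and Itgb1 products is known as the main integrin of differentiated fibres. The receptors made with Itga5 and Itgav bind fibronectin or vitronectin through the RGD tripeptide and are known from adherent myoblasts and fibroblasts. The 10 genes described here, Itga3, Itga4, Itga5, Itga6, Itga7, Itga9, Itgav, Itgb1, Itgb3 and Itgb5, were taken by name, with every probe set annotated to exactly 1 of them. A probe set is a group of oligonucleotides on the array that report the same transcript. The 10 genes had 35 probe sets, of 34945 that carried exactly 1 gene symbol and stood for 18193 genes.

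Expression was measured in C2C12 cells, a mouse myoblast line, that carried an shRNA against PRDM2, a PR/SET domain zinc finger protein, or a control shRNA against GFP, with 3 Affymetrix arrays in each group. Both were stable pools of transfected cells held for 48 hours in methylcellulose suspension with fetal calf serum, which takes away adhesion to a substrate. Such suspension is known to bring myoblasts to G0, and the cell cycle state of these pools was not examined here. The labels number the arrays of a group as biological replicates without saying that the pools were made separately, so p-values measure the spread between these arrays. The comparison asks which transcripts differ between suspended cells with the PRDM2 shRNA and suspended cells with the GFP shRNA. Prdm2 itself had intensities of 58.0, 51.5 and 29.0 on the knockdown arrays and 86.2, 73.6 and 47.1 on the GFP arrays at the probe set of highest mean, and the groups overlapped (log2 difference -0.51, limma adjusted p = 0.4). A second Prdm2 probe set differed by -0.75 (limma adjusted p = 0.433), and its groups overlapped too. The third, with means of 7.84 in knockdown and 6.51 in GFP cells, differed by 0.1 (limma adjusted p = 0.766).

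The arrays had median intensities of 10.6 to 12.1, and precision is limited by having 3 arrays in a group. GFP array 3 stood apart in a control for RNA integrity: the 5'/3' ratio of its Gapdh probe sets was 0.0992, where the other 5 had 0.704 to 1.14. Knockdown array 3 and GFP array 3 had a lower poly-A spike signal, 42.3 and 43.1, against 160 to 350 on the other arrays, so differences are also given for the 4 arrays of higher and the 2 arrays of lower spike signal. The muscle line markers Myod1, Des, Chrna1 and Ncam1 were bright in both groups. Cdh15 was less so, at means of 60.3 in knockdown and 51.6 in GFP cells. Msc was dim in both, at 4.49 in knockdown and 7.81 in GFP cells. Of the 7 such markers 0 rose and 1, Myf5, fell. Of 8 markers of differentiated muscle 7 rose, where 2.36% of all genes rose and 1.80% fell. The other, Ckm, did not pass, with means of 51 in knockdown and 81.1 in GFP cells. The summed intensity of the 8 markers was 6670 to 8460 on the knockdown arrays against 228 to 416 on the GFP arrays. Their part in the integrin differences below was not tested. In these bulk samples, fewer cells of a type and less RNA per cell cannot be told apart.

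Of the 35 integrin probe sets, 3 rose in knockdown cells and none fell at a limma adjusted p under 0.05. They were 1 probe set of Itga4 and 2 of Itgb5. Over all probe sets 3.11% passed, 1.81% higher and 1.30% lower. Without adjustment 9 integrin probe sets had a limma p under 0.05, 6 higher and 3 lower, where 12.9% of all probe sets did. The 6 higher ones included all 4 probe sets of Itgb5. Represented by the probe set of highest mean over the 6 arrays, 1 of the 10 genes rose, Itga4, and 9 did not pass, where 4.16% of all genes passed, 2.36% higher and 1.80% lower. The 3 passing probe sets depended on the arrays and the test: the count was 0 without knockdown array 1, 1 without knockdown array 2 or GFP array 1, and 0 with ordinary statistics, where 6 were higher and 1 lower at an unadjusted p under 0.05.

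The 10 representing probe sets had 5 positive and 5 negative log2 differences, with a median of -0.15, where all genes had 0.00. Their median size without sign was 0.50 on the log2 scale, where it was 0.13 over all genes and 0.22 over genes with a mean intensity of at least 16 in a group. Of the 35 probe sets, 21 reached that mean of 16 and 14 did not. The 14 dim ones belonged to Itga3, Itga4, Itga5, Itga9, Itgav, Itgb1 and Itgb3 and read 0.297 to 16. Their log2 differences lay between -0.15 and 0.10, and their smallest limma adjusted p was 0.765. The 21 brighter ones carry the values below. In 8 of these 21 the groups did not overlap on the normalized scale, where 23.1% of all probe sets this bright were separated. The 8 included all 4 probe sets of Itgb5, which report 1 gene. Among probe sets this bright, 3.23% rose.

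**Figure D1:**
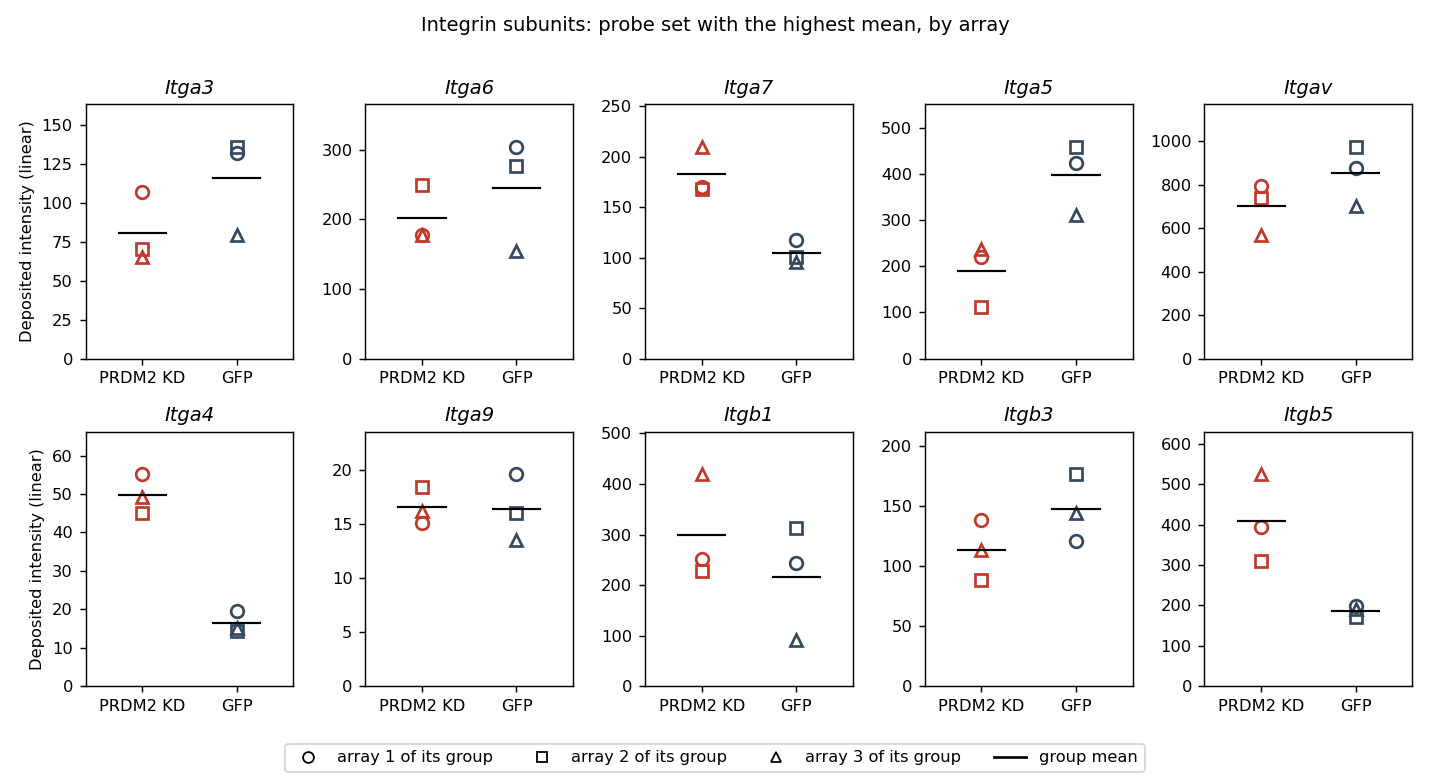
Deposited intensity (linear axis from 0, scaled for each gene) of the representing probe set of each integrin gene on the 3 PRDM2 knockdown and 3 GFP arrays, with the group mean as a bar. The groups are apart for Itga4, Itgb5 and Itga7, higher in the knockdown, and for Itga5, lower in the knockdown.

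The promoters of Itga4 and Itgb5, which had probe sets that rose, and of Itga5, which had the largest negative difference at a representing probe set and did not pass, are shown here because skeletal muscle genes are known to be bound by MyoD family factors at E-boxes, which read CANNTG on either strand. The RefSeq table of build GRCm38.p6 held promoters of 7 of the 10 genes, each 250 bases before and 50 after an annotated start, with 2 for Itga3. Itga6, Itga7 and Itgb3 were not matched. The sequence of Itga4 lies at chr2:79255176-79255475 on the plus strand and that of Itgb5 at chr16:33829415-33829714 on the plus strand. That of Itga5 lies at chr15:103366742-103367041 on the minus strand. Capitals mark each CANNTG.
Itga4: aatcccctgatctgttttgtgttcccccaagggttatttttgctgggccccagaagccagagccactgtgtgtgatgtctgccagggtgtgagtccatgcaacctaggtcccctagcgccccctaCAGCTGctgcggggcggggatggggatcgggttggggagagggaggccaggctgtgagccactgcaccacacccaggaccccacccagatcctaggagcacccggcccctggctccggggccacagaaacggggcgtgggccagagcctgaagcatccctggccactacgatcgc
Itgb5: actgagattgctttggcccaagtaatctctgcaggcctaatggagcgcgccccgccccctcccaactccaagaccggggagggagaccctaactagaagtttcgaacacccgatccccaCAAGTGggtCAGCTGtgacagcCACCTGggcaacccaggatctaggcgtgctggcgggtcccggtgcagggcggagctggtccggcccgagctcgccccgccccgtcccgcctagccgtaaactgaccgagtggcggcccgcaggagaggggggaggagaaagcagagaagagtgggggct
Itga5: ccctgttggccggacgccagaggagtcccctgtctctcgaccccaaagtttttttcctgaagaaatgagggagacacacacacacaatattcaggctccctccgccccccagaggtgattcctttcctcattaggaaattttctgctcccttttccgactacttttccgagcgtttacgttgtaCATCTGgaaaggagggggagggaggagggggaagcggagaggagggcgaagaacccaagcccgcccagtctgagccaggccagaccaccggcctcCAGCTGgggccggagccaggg

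The Itga4 window held 1 E-box, which reads CAGCTG and begins 125 bases before the start. The Itgb5 window held 3 within a short stretch, at 131, 122 and 109 bases before the start, and the one at 122 is CAGCTG. Itga5 held 2, at 66 bases before the start and, as CAGCTG, 29 bases after it. These letters are common: 72.3% of all 32851 promoter windows of this length held an E-box of any middle letters, and 16.3% held one that reads CAGCTG, which the first share includes. Of the 7 matched integrin genes, 5 held an E-box and 4 of them the CAGCTG form, among them Itga9, while the letters were not in the windows of Itgav and Itgb1. The Sp1 box GGGCGG, read on both strands, was in 6 of the 7 genes and in 35.7% of all windows. A match is a description of the sequence.

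Itga4 encodes the alpha4 subunit, which with beta1 binds VCAM-1 on other cells and the spliced CS1 segment of fibronectin. Its representing probe set (1436037_at) read 55.1, 45.0 and 49.2 on the knockdown arrays and 19.6, 14.4 and 15.0 on the GFP arrays. All 3 knockdown values lay above all GFP values. The mean was 49.8 ± 5.07 in knockdown cells and 16.3 ± 2.85 in GFP cells (SD, n = 3 each), 304% of the control. On the normalized log2 scale with an offset of 16, which understates the change of dim transcripts, it rose by 0.99 (SE 0.112, limma adjusted p = 0.00846; exact two-sided permutation p = 0.1, the smallest that 3 arrays against 3 allow). By spike class the difference was 0.99 (higher, 4 arrays) and 1.01 (lower, 2 arrays). The limma adjusted p was 0.0534 without knockdown array 1, 0.128 when the 2 arrays of lower spike were left out and 0.0714 with ordinary statistics, within 0.00357 to 0.809 over 22 alternatives.

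The other probe sets of Itga4 did not follow. The second (1421194_at) read 17.0, 19.8 and 35.5 in knockdown cells and 25.7, 20.1 and 72.3 in GFP cells, and the highest value came from GFP array 3, the array with the low Gapdh ratio. Its log2 difference was -0.42 (95% interval -1.41 to 0.58, limma adjusted p = 0.806), and 0.05 without that array. The remaining 3 were dim, between 0.69 and 9.92, with log2 differences of -0.06 to 0.02. When the 5 probe sets of Itga4 were averaged, the difference was 0.09 (limma adjusted p = 0.809). The rise of Itga4 therefore rests on 1 of its 5 probe sets.

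The genes closest to the Itga4 probe set over the 6 arrays were Wnt10a, Cpq and Pnp. Likeness was the root mean square difference of centred normalized log2 values, over 9095 genes above the median gene, and it was 0.0774, 0.0904 and 0.0927. Wnt10a, a Wnt ligand, had intensities of 81.4 ± 5.50 in knockdown and 32.9 ± 3.07 in GFP cells (SD, n = 3 each). Cpq, a secreted carboxypeptidase, had 796 ± 38.3 in knockdown and 388 ± 84.1 in GFP cells. Pnp, purine nucleoside phosphorylase, had 230 ± 10.7 in knockdown and 107 ± 25.2 in GFP cells.

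Itgb5 encodes the beta5 subunit, which pairs with alphaV as a receptor for vitronectin. All 4 of its probe sets were above the dim limit, and all 4 were higher on each knockdown array than on any GFP array. The third (1417534_at) read 262, 218 and 367 in knockdown cells and 129, 103 and 90.4 in GFP cells. It rose by 1.17 on the log2 scale (SE 0.197, limma adjusted p = 0.0326), with means of 283 ± 76.8 and 108 ± 19.8 (knockdown and GFP, SD, n = 3 each). The second (1456133_x_at) read 353, 336 and 323 in knockdown cells and 185, 151 and 172 in GFP cells, and it rose by 0.85 (SE 0.126, limma adjusted p = 0.0218). In Affymetrix names the ending _x_at marks a probe set with probes that also match other sequences. Probe sets 2 and 4 of Itgb5 carry it, as do probe sets 2 and 4 of Itgb1.

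The representing probe set of Itgb5 (1417533_a_at) just missed the threshold. It read 394, 311 and 525 in knockdown cells and 199, 172 and 191 in GFP cells, with means of 410 ± 108 and 187 ± 14.0 (knockdown and GFP, SD, n = 3 each), 219% of the control. On the log2 scale it was higher by 0.97 (SE 0.209, 95% interval 0.47 to 1.48, limma adjusted p = 0.076), 0.87 within the higher and 1.18 between the lower spike arrays. It passed in 9 of 22 alternatives, among them a test over 1 probe set per gene (limma adjusted p = 0.0482) and the mean of the 4 probe sets, which was higher by 0.99 (limma adjusted p = 0.0171), within 0.0171 to 0.283 over all of them. Probe set 4 (1456195_x_at) read 284, 197 and 231 in knockdown cells and 125, 74.9 and 123 in GFP cells, a difference of 0.96 that did not pass (limma adjusted p = 0.128). Leaving out an array did not change the sign for any of the 4. The call of the second was lost without knockdown array 1, 2 or 3 or GFP array 1, and that of the third without any array but knockdown array 3, with limma adjusted p of 0.0548 to 0.115.

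**Figure D2:**
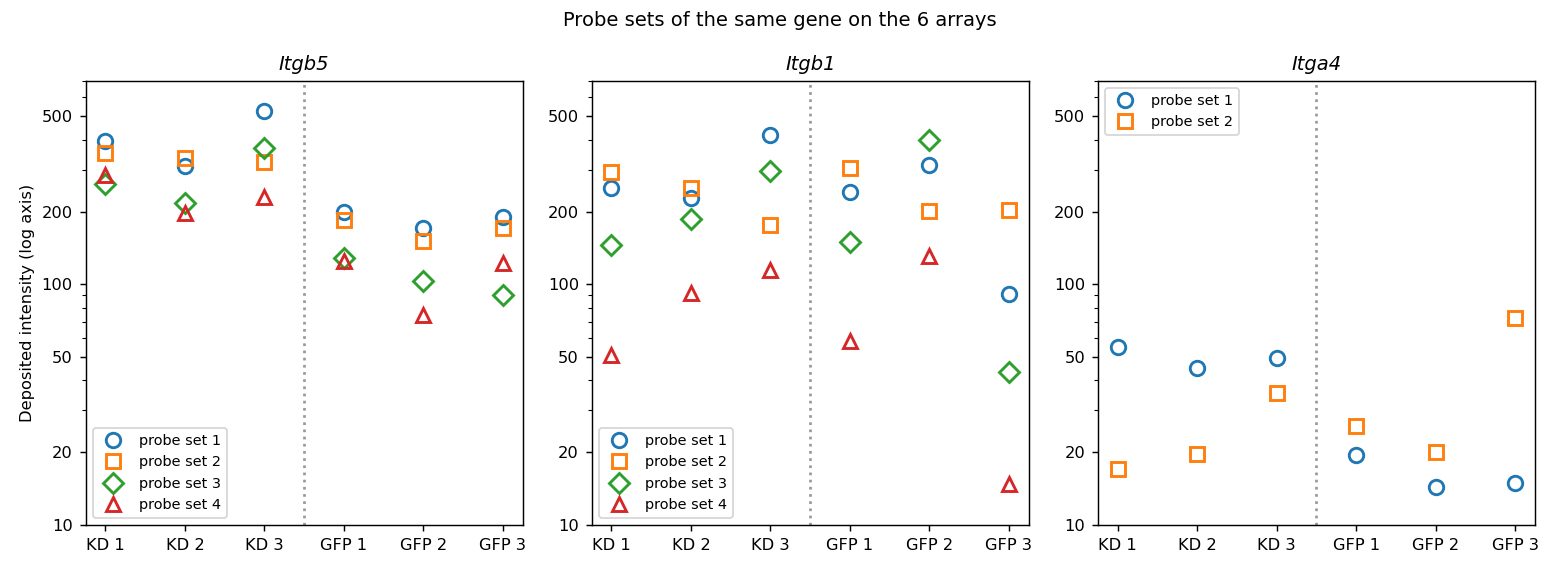
Deposited intensity (log axis) of the probe sets of Itgb5, Itgb1 and Itga4 with a group mean of at least 16, on each PRDM2 knockdown (KD) and GFP array, numbered by falling mean. The 4 sets of Itgb5 are all higher in the knockdown, 3 of the 4 sets of Itgb1 are lowest on GFP array 3, and the 2 sets of Itga4 disagree.

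Among the laminin receptors, Itga7 encodes the alpha7 subunit of myogenic cells. Its only probe set (1418393_a_at) read 170, 168 and 210 in knockdown cells and 118, 101 and 95.9 in GFP cells. The groups did not overlap, and the means were 183 ± 23.5 and 105 ± 11.6 (knockdown and GFP, SD, n = 3 each), 174% of the control. On the log2 scale it was higher by 0.63 (SE 0.123, 95% interval 0.33 to 0.92) and it did not pass (limma adjusted p = 0.056; exact two-sided permutation p = 0.1). It was 0.55 within the higher and 0.78 between the lower spike arrays. The limma adjusted p was under the threshold in 5 of 22 alternatives, such as a test over 1 probe set per gene (0.0396), no normalization between arrays (0.0397) and median scaling (0.0371), within 0.0311 to 0.284 over all.

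Itga3 and Itga6, the alpha subunits of the laminin receptors that many epithelia also use, had negative differences at each of their brighter probe sets, and none passed. Itga3 (1455158_at) read 107, 70.3 and 65.0 in knockdown cells and 132, 136 and 79.2 in GFP cells. The groups overlapped, and the log2 difference was -0.52 (95% interval -0.99 to -0.05, limma adjusted p = 0.32). It was -0.56 within the higher and -0.45 between the lower spike arrays. The second Itga3 probe set had a difference of -0.26 (limma adjusted p = 0.67), with -0.49 within the higher and 0.19 between the lower spike arrays. Itga6 (1422444_at) read 178, 249 and 177 in knockdown cells and 304, 276 and 155 in GFP cells, where GFP array 3 was the lowest of the 6. Its probe sets differed by -0.32 and -0.26 (limma adjusted p = 0.682 and 0.585), with intervals of -0.84 to 0.21 and -0.62 to 0.09. Within the higher spike arrays the differences were -0.44 and -0.36, and between the lower ones -0.07 and -0.06.

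Of the RGD-binding alpha subunits, Itga5 had the largest negative difference of the 10 genes at a representing probe set. Itga5 encodes the alpha5 subunit, which with beta1 is the classical fibronectin receptor. Its representing probe set (1423267_s_at) read 220, 111 and 238 in knockdown cells and 424, 459 and 312 in GFP cells. The groups were apart, and knockdown cells stood at 47.7% of the control, 190 ± 68.6 and 398 ± 76.7 (knockdown and GFP, SD, n = 3 each). On the log2 scale that was -1.14 (SE 0.256, 95% interval -1.76 to -0.52), and it did not pass (limma adjusted p = 0.088; exact two-sided permutation p = 0.1). It was -1.39 within the higher and -0.64 between the lower spike arrays. It passed in 4 of 22 alternatives, with a filter on low values (limma adjusted p = 0.0332), over probe sets of at least 16 in a group (0.037), with an intensity trend (0.0449) and with array weights (0.0302), within 0.0302 to 0.309 over all.

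A single array set the mean of the second Itga5 probe set. The second (1423268_at) read 61.7, 58.0 and 81.7 in knockdown cells and 76.9, 584 and 82.7 in GFP cells, so that GFP array 2 stood far above the rest. Its log2 difference of -1.18 had an interval of -2.80 to 0.45 (limma adjusted p = 0.595), and it was -0.34 without that array. The third (1458996_at) had means of 25.2 ± 5.31 and 26.9 ± 3.88 (knockdown and GFP, SD, n = 3 each) and differed by -0.09.

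Itgav, the alphaV subunit that pairs with beta1, beta3 and beta5, read 795, 738 and 567 in knockdown cells and 878, 974 and 702 in GFP cells at its one bright probe set (1452784_at). Deposited values overlapped, because knockdown arrays 1 and 2 lay above GFP array 3, while the normalized values did not. The log2 difference was -0.34 (95% interval -0.65 to -0.03, limma adjusted p = 0.335). Its partner Itgb3, the beta3 subunit, read 138, 88.5 and 113 in knockdown cells and 121, 176 and 144 in GFP cells (1455257_at). Those groups overlapped, with a difference of -0.43 (95% interval -0.87 to 0.01, limma adjusted p = 0.402). Of the 3 beta genes, then, Itgb5 had positive and Itgb3 negative values, and no test of that contrast was made.

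Itga9, the alpha9 subunit, a relative of alpha4 that binds tenascin C and other ligands with beta1, was close to the dim limit. It read 15.1, 18.4 and 16.2 in knockdown cells and 19.6, 16 and 13.5 in GFP cells (1420860_at). The groups overlapped throughout, and the log2 difference was 0.03 with an interval of -0.21 to 0.26 (limma adjusted p = 0.967). At this intensity the offset shrinks any difference.

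Itgb1, the beta1 subunit shared by most of the receptors above, gave no common direction. Its representing probe set (1426918_at) read 252, 228 and 419 in knockdown cells and 243, 313 and 90.9 in GFP cells. Knockdown array 3 was the highest and GFP array 3 the lowest. The log2 difference was 0.47 (95% interval -0.49 to 1.43, limma adjusted p = 0.763), and it was -0.20 within the higher against 1.81 between the lower spike arrays. The third (1452545_a_at) read 146, 187 and 297 in knockdown cells and 150, 399 and 43.2 in GFP cells, and probe set 4 (1427771_x_at) read 50.8, 91.7 and 115 in knockdown cells and 58.4, 131 and 14.8 in GFP cells. GFP array 3 was the lowest array for both. Their differences were 0.37 and 0.45, and both became negative without GFP array 3, at -0.28 and -0.12. The second (1426920_x_at) read 292, 252 and 176 in knockdown cells and 305, 201 and 203 in GFP cells, without a low value on GFP array 3, and differed by -0.07 (95% interval -0.59 to 0.44). The part of RNA integrity in these values was not tested beyond the alternatives given.

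**Figure D3:**
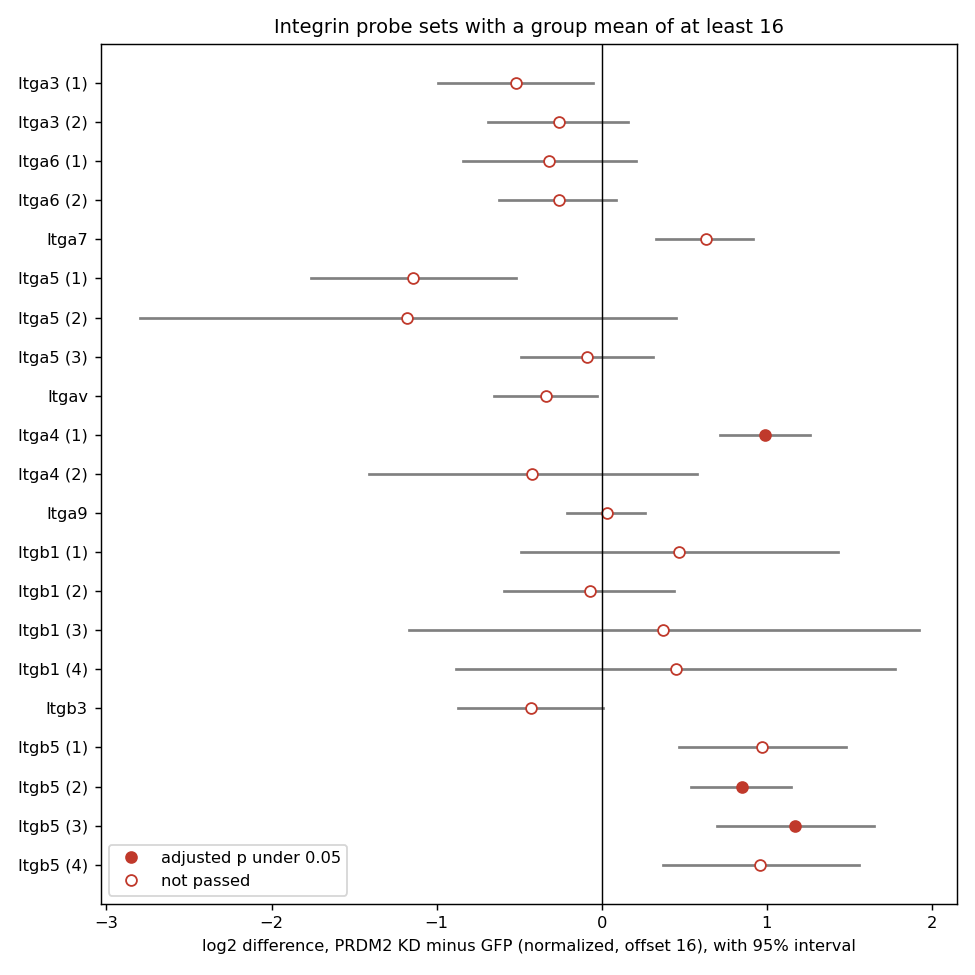
Log2 difference, PRDM2 knockdown minus GFP (normalized, offset 16), with its unadjusted 95% interval, for the 21 integrin probe sets with a mean of at least 16 in a group, numbered by falling mean within a gene. Filled points, 1 of Itga4 and 2 of Itgb5, passed at an adjusted p under 0.05.

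The median SD over the 21 brighter integrin probe sets was 0.28 on the log2 scale in knockdown cells and 0.25 in GFP cells, where probe sets this bright over the whole array had 0.21 and 0.25. The widest was the second Itga5 probe set in GFP cells, at 1.45. Of the 3 GFP arrays, array 3 was the lowest for 10 of the 21, array 2 for 9 and array 1 for 2.

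**Figure D4:**
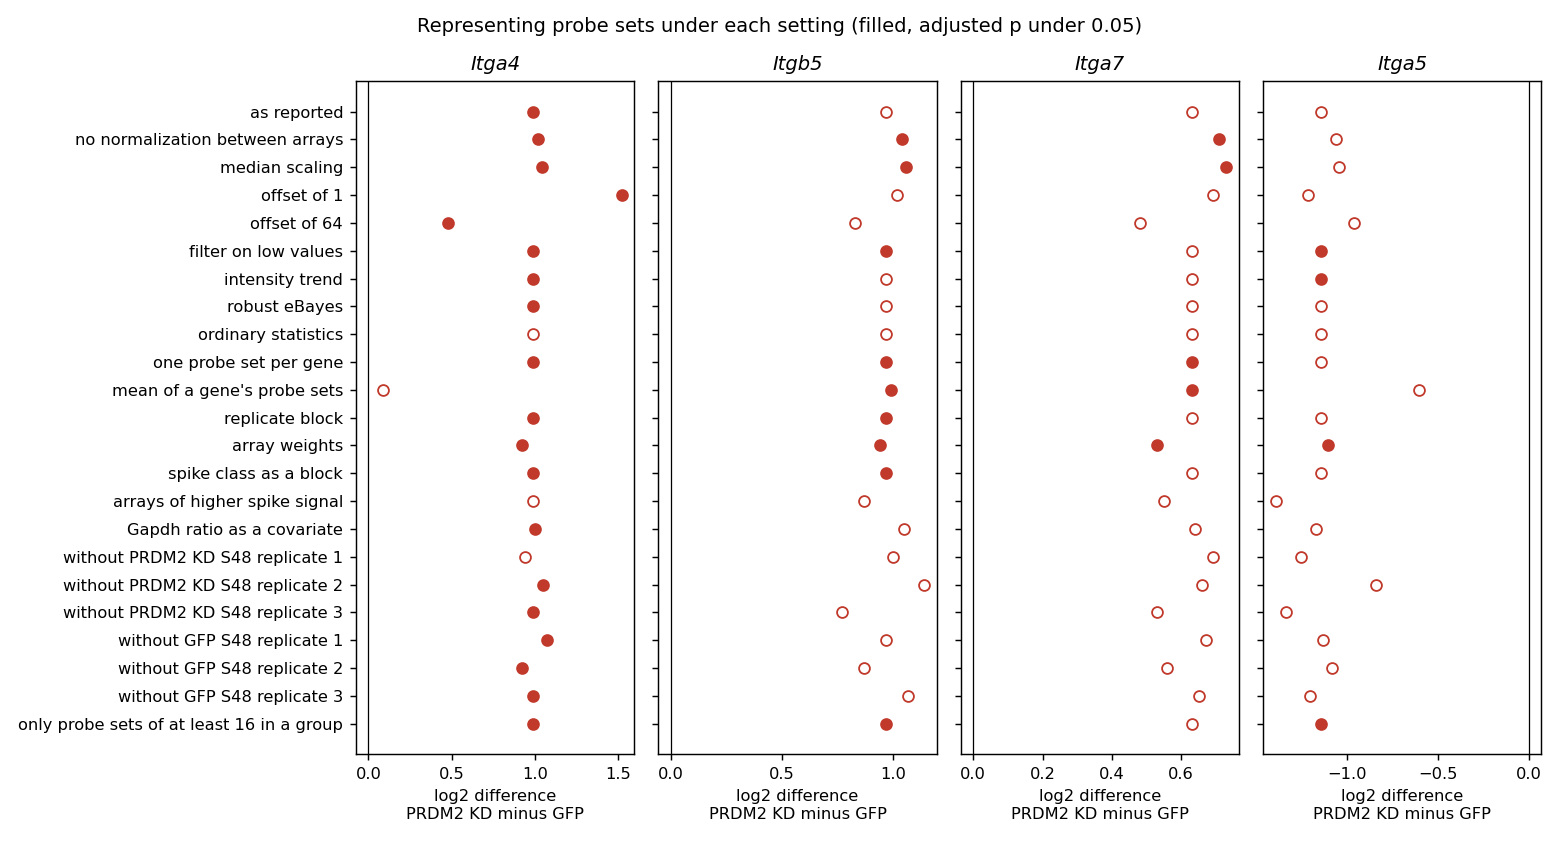
Log2 difference, PRDM2 knockdown minus GFP, of the representing probe sets of Itga4, Itgb5, Itga7 and Itga5 as reported and under each of 22 other settings, filled where the adjusted p was under 0.05. No setting changed a sign, and the mean of the probe sets moved Itga4 to 0.09.

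Integrin subunits outside the 10 genes gave no call. Of 16 listed, 14 were measured, 0 passed with limma at an adjusted p under 0.05, 9 were dim and the median log2 difference was 0.02. At an unadjusted limma p under 0.05 there were 4 genes, Itgb2, Itgb7, Itga10 and Itgb4. All but Itgb7 were named after their values were seen. Over all probe sets, dim ones included, 12.9% had such a p, and the share over genes was not taken. Itgb2, the beta subunit of leukocyte integrins, read 68.5, 58.8 and 31.2 in knockdown cells and 23.1, 20.6 and 9.40 in GFP cells (log2 difference 1.00, limma adjusted p = 0.122). Itgb7, the beta subunit that pairs with alpha4 or alphaE, read 26.7, 22.3 and 22.6 in knockdown cells and 32, 51.6 and 45.0 in GFP cells (log2 difference -0.58, limma adjusted p = 0.122). Itga2b, the platelet alpha subunit, differed by 0.05.

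Among integrin ligands, the alpha4 ligand Vcam1 stood out. Of 27 listed genes 25 were measured, 3 rose, 1 fell and 21 did not pass, where 4.16% of all genes passed, and the median log2 difference was 0.03. Vcam1, a cell surface ligand of alpha4 beta1, read 429, 385 and 481 in knockdown cells and 57.4, 91.4 and 54.9 in GFP cells. The groups were far apart, and Vcam1 rose by 2.36 (SE 0.159, limma adjusted p = 0.00137), a call it kept under each of 22 alternatives. Its other probe sets had differences of 1.5 and 1.08, and at the second of these the groups overlapped. Svep1, a matrix ligand of alpha9 beta1, read 54.6, 35.3 and 51.6 in knockdown cells and 1.15, 1.88 and 1.34 in GFP cells and rose by 1.81 (limma adjusted p = 0.00219), with 0.051 under ordinary statistics and 0.064 on the higher spike arrays, within 0.000295 to 0.064. Its GFP values were dim, and the difference was 4.22 at an offset of 1 and 0.74 at an offset of 64.

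Thbs1 and Tnc moved in opposite directions. Thbs1, the matrix protein thrombospondin 1, read 232, 227 and 552 in knockdown cells and 25, 54.3 and 9.61 in GFP cells, and its rise of 2.93 was 2.18 within the higher and 4.45 between the lower spike arrays. Its limma adjusted p of 0.0253 was above 0.05 in 10 of 22 alternatives, within 0.00272 to 0.189, among them leaving out GFP array 1 or 3 or any knockdown array. Tnc, tenascin C, a ligand of alpha9 and alphaV receptors, read 115, 101 and 141 in knockdown cells and 543, 292 and 349 in GFP cells. It fell by 1.66 (limma adjusted p = 0.018), and its call was lost without GFP array 3 or any knockdown array, within 0.00304 to 0.164. Fn1, fibronectin, which Itga5 receptors bind, had mean intensities of 3490 in knockdown and 3300 in GFP cells and a log2 difference of 0.03.

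Activators and actin linkers of integrins had 2 of 33 measured genes higher, 0 lower and 31 not passing, where 2.36% of all genes rose and 1.80% fell, and the median log2 difference was 0.17. Itgb1bp2, melusin, a muscle protein that binds the beta1 tail, read 67.7, 95.3 and 138 in knockdown cells and 2.15, 5.47 and 1.93 in GFP cells. The groups were far apart, and it rose by 2.52 (SE 0.227, limma adjusted p = 0.00387). Its GFP values were dim, so the size depends on the offset, with 4.6 at an offset of 1 and 1.24 at an offset of 64. The limma adjusted p was 0.0723 with ordinary statistics, within 0.000306 to 0.0723 over 22 alternatives. Apbb1ip, an adaptor between Rap1 and talin, was dim, at 14.6 ± 3.60 in knockdown and 3.01 ± 0.932 in GFP cells (SD, n = 3 each). It rose by 0.69 (limma adjusted p = 0.0343), a call lost without any 1 of the arrays, within 0.00892 to 0.236. Its second probe set, also dim, differed by 0.09 (limma adjusted p = 0.786).

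Of 17 measured kinases, scaffolds and GTPase regulators of focal adhesions, 1 rose, 1 fell and 15 did not pass, where 4.16% of all genes passed, and the median log2 difference was -0.13. Ptk2b, the focal adhesion kinase relative PYK2, read 105, 65.7 and 62.9 in knockdown cells and 320, 351 and 242 in GFP cells and fell by 1.87 (SE 0.173, limma adjusted p = 0.00416). The limma adjusted p was 0.0716 with ordinary statistics and 0.0739 on the higher spike arrays, within 0.00069 to 0.0739, and the mean with its dim second probe set was -0.97. Arhgef6, an exchange factor for Rac and Cdc42, rose by 0.86 (limma adjusted p = 0.0115). Its means were 19.0 ± 2.64 and 3.36 ± 1.29 (knockdown and GFP, SD, n = 3 each). The limma adjusted p was over the threshold without knockdown array 1 or 3 (0.0611 and 0.057), within 0.00413 to 0.149. Its dim second probe set differed by 0.1 (limma adjusted p = 0.893). Among membrane partners of integrins 0 rose, 1 fell and 14 of 15 did not pass, where 1.80% of all genes fell, and the median log2 difference was -0.16. Cav1, caveolin-1, which organises integrins in membrane pits, read 225, 257 and 167 in knockdown cells and 526, 533 and 378 in GFP cells and fell by 1.18 (SE 0.164, limma adjusted p = 0.0171). Its limma adjusted p was 0.0838 without knockdown array 1 and 0.0813 without GFP array 1, within 0.00346 to 0.132.

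**Figure D5:**
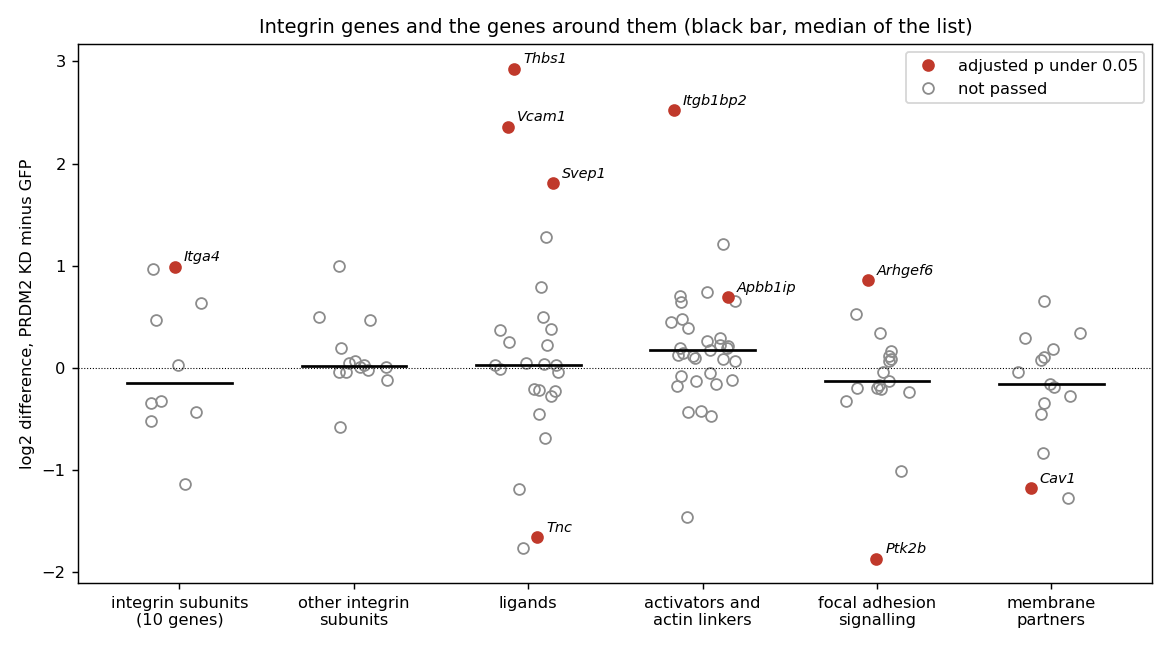
Log2 difference, PRDM2 knockdown minus GFP, of each gene's representing probe set in the 10 integrin genes and in 5 lists of genes around them, with a bar at the list median. Filled points passed at an adjusted p under 0.05: 1 of the 10 integrin genes and 9 genes of the lists.

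Several integrins are also markers of other cells, so marker lists were read beside them. Over all genes 4.16% passed, 2.36% higher and 1.80% lower. Markers of macrophages, which carry Itga4 and Itgb2, had 0 of 5 passing. Their summed intensities were 81.8 to 126 on the knockdown arrays and 127 to 252 on the GFP arrays. Among them Csf1r was brightest, with means of 61.9 in knockdown and 113 in GFP cells. Ptprc, the common leukocyte antigen, was at 1.82 in knockdown and 1.09 in GFP cells. Endothelial markers summed to 43.1 to 71.7 in knockdown and 45.0 to 92.1 in GFP cells, with 0 of 5 passing. Emcn, the brightest of them, was at 43.7 in knockdown and 56.1 in GFP cells, and Pecam1 was at 2.74 in knockdown and 2.61 in GFP cells. Adipocyte markers had 0 of 3 passing (17.5 to 24.5 in knockdown and 9.40 to 22.8 in GFP cells), and epithelial ones 0 of 4 (96.1 to 114 in knockdown and 90.3 to 141 in GFP cells). The epithelial sum joins opposite differences that did not pass. Epcam was at 69.9 in knockdown and 35.8 in GFP cells, and Krt14 at 15.9 in knockdown and 53.3 in GFP cells. Schwann and neural markers summed to 26.5 to 33.2 in knockdown and 47.1 to 61.6 in GFP cells, with 1 of 3, S100b, lower. Platelet markers summed to 80.6 to 87.6 in knockdown and 54.9 to 71.6 in GFP cells, with 1 of 3, Pf4, higher. Itga2b, the brightest of them, was at 52.4 in knockdown and 47.3 in GFP cells, and Gp9 was at 3.85 in knockdown and 4.5 in GFP cells. The part of any of these cells in the integrin values was not tested.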

How the data were processed

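The deposited values are 1 linear intensity per probe set and array. Biotinylated cRNA was prepared from Trizol-extracted RNA, per the labels' protocols. The submitters' processing notes list GCOS and PLIER with no version. Neither background correction nor scaling between arrays is described in the labels or files. The value table has 45101 probe sets, and 0 of its columns belonged to other samples. In R 4.3.3 with limma 3.58.1, values were transformed as log2(intensity + 16) and quantile normalized. The 64 control probe sets were left out, as were those with several gene symbols (932) or none (9160) in the platform annotation. Groups were compared with lmFit and eBayes over 34945 probe sets of 1 symbol, with Benjamini-Hochberg adjustment over all of them and a threshold of 0.05. A gene was represented by its probe set of highest mean over the 6 arrays. Means ± SD are of deposited intensities. The fit was tested on simulated data.

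The members and lists were chosen with earlier results of these data known. All probe sets of the 10 genes are accounted for. From each list the passing genes of smallest adjusted p, up to 5, are named, or the 2 of highest mean where none passed, with the 3 genes most like a passing member. Alternatives covered normalization, offset, low values, variance model, choice of probe set, replicate number, array weights, spike class, Gapdh ratio and each array left out. One of them, a mean of at least 16 in a group, was chosen after seeing the data.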

Additional observations from a re-analysis of the deposited data

How the results depend on the processing

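Over the named probe sets and genes, 698 comparisons with an alternative gave 591 with the same direction and call, 66 that lost the call, 19 that gained it and 22 of the other sign. The reported counts are 1 integrin gene higher and 0 lower, 3 integrin probe sets higher and 0 lower, 633 of all probe sets higher and 454 lower, and 6 genes of the 5 lists around integrins higher and 3 lower. Integrin genes higher numbered 3 without normalization between arrays, with median scaling, with 1 probe set per gene and with array weights. They numbered 2 with the filter on low values, the mean of a gene's probe sets, the spike class as a block and the limit of 16 chosen after seeing the data, and 0 with ordinary statistics and on the arrays of higher spike signal. Integrin genes lower numbered 1 with the filter, the intensity trend, array weights and the limit of 16, as did integrin probe sets lower. Integrin probe sets higher numbered 5 without normalization and with median scaling, 1 with an offset of 1, 6 with array weights, and 0 with ordinary statistics (6 higher and 1 lower at an unadjusted p under 0.05) and on the higher spike arrays. All probe sets higher and lower numbered 119 and 51 with ordinary statistics, 1181 and 919 with array weights and 154 and 71 on the higher spike arrays, and 302 were lower with an offset of 64. Genes of the lists higher numbered 1 with ordinary statistics, 11 with array weights and 2 on the higher spike arrays. Lower ones numbered 7 with the filter and the limit of 16, 6 with the trend and the mean of probe sets, 5 with 1 probe set per gene and the Gapdh ratio, 10 with array weights, and 0 with ordinary statistics and on the higher spike arrays. Leaving out each array gave 0 to 1 integrin genes higher, 0 to 2 integrin probe sets higher, 251 to 514 and 141 to 414 of all probe sets higher and lower, and 3 to 6 and 2 to 5 genes of the lists higher and lower.

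With the replicate block, 2 integrin genes rose, Itga4 and Itgb5 at its representing probe set (adjusted p = 0.0438 with limma), while Itgb5 probe sets 2 and 3 lost their calls (0.0717 and 0.0701), and 353 of all probe sets were higher and 237 lower. Same-numbered arrays had correlations of 0.368, 0.0645 and -0.0413 in their deviations from the group means, where number 1 had -0.414 to 0.183 with arrays of other numbers. Not every pair was over 0.1, and the numbers were not taken to pair the arrays. Values of the other sign all belonged to differences that did not pass. They were 0.01 for Itga5 probe set 3 with the Gapdh ratio (-0.22 to 0.03 leaving out arrays), and -0.09, -0.01 and 0 for Itga9 with array weights, the higher spike arrays and the Gapdh ratio (-0.01 to 0.1). On the higher spike arrays Itgb1 probe sets 1 to 4 had -0.2, 0.11, -0.55 and -0.32. Probe set 2 had 0.02 without normalization and 0.04 with median scaling (-0.22 to 0.11 leaving out arrays), and probe sets 3 and 4 had -0.17 and -0.03 with the Gapdh ratio (-0.28 to 1.02 and -0.12 to 0.97). Itga4 probe set 2 had -0.73 to 0.05 and Itga2b -0.08 to 0.22 leaving out arrays. The causes were not tested. Signal near background limits the 14 dim probe sets.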
